A study of Homo sapiens with 6 samples.

Results

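The TNF receptor superfamily is a group of cell-surface and secreted receptors for TNF and related cytokines, and 10 of its members were followed here in synovial fibroblasts: TNFRSF1A, TNFRSF1B, TNFRSF9, TNFRSF10A, TNFRSF10D, TNFRSF11B, TNFRSF12A, TNFRSF21, TNFRSF25 and LTBR. They were taken by gene symbol from a table of 19475 genes, and all 10 passed the filter on low counts. RNA sequencing was done on MH7A, a line of synovial fibroblasts from a patient with rheumatoid arthritis that was immortalised with a viral T antigen. All cells, the controls included, had received TNFα (10 ng/ml). The TNF group (replicates 2, 8 and 14, n = 3) had TNFα alone, and in the LED group (replicates 4, 6 and 10, n = 3) TNFα was combined with red light of 630 nm for 15 min, given 3 times. No cells without TNFα were part of the comparison, so the response of these receptors to TNFα itself was not measured. Nothing in the labels says whether replicates came from separate cultures. The p-values therefore reflect the spread among these 6 samples, and that spread may be technical only.

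Receptors of this family bind ligands that work as trimers, and they differ in what they do next. Some carry a death domain and can start apoptosis through FADD and caspase 8, others recruit TRAF adaptors and turn on NF-kB, and decoys bind a ligand without passing on a death signal. In the arthritic joint the family is best known through TNF itself, whose blockade is a treatment, and through osteoprotegerin, a soluble decoy that binds RANKL and so restrains the formation of bone-resorbing osteoclasts.

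With LED, 1 of the 10 receptors rose and 1 fell. TNFRSF10D, a decoy receptor for the death ligand TRAIL, was 2.86-fold higher, and TNFRSF11B, which encodes osteoprotegerin, was 2.28-fold lower. The death receptor TNFRSF10A had lower values in every LED library without passing the test, and TNFRSF1A, the main receptor for TNF, had nearly the same mean in both groups. Of all 13794 genes tested, 5.17% were called in either direction, 2.44% higher and 2.73% lower. The groups did not overlap for 4 of the 10 receptors (TNFRSF10A, TNFRSF10D, TNFRSF11B and LTBR), and this held for 32.4% of all genes tested. The median of the 10 log2 differences was -0.14, beside 0.01 over all genes tested, and their median size without sign was 0.298, beside 0.305 over all genes.

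Deposited totals were 86000253 to 108074289 estimated counts per library. Libraries labelled TNF replicate 8 and LED replicate 6 stood apart from the others of their group, and each was the library farthest from its group's other members for 7 of the 10 receptors. Fibroblast markers were present in every library (10 genes, 28116 to 30138 CPM in sum with TNF and 23953 to 25280 CPM with LED). The sum is weighted toward abundant genes such as COL1A1, with a mean of 13123 CPM with TNF and 9810 CPM with LED. None of the 10 was called, and their median log2 difference was -0.02. Of the T cell markers, 5 of 6 were at 0 in all libraries. CD4 (57.1 to 73.0 CPM) and the endothelial marker TEK (56.7 to 112 CPM) were the exceptions among markers of other cell types. TEK was at 77.7 to 112 CPM with TNF and 56.7 to 75.2 CPM with LED (log2 -0.63 ± 0.20, adjusted p = 0.106). The endothelial marker VWF, near the limit of detection, differed the other way, with 0.369 to 1.10 CPM with TNF and 1.44 to 1.93 CPM with LED (log2 1.35 ± 0.47, adjusted p = 0.130), while CDH5 was at 0 in all libraries. The part of these marker differences in the results on the receptors was not tested. The B cell, macrophage and epithelial lists each summed to at most 2.41 CPM. CPM stands for counts scaled to library size, after adjustment by TMM, a method that matches libraries on the bulk of their genes. In bulk RNA a smaller share of expressing cells cannot be told apart from less RNA per cell.

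**Figure D1:**
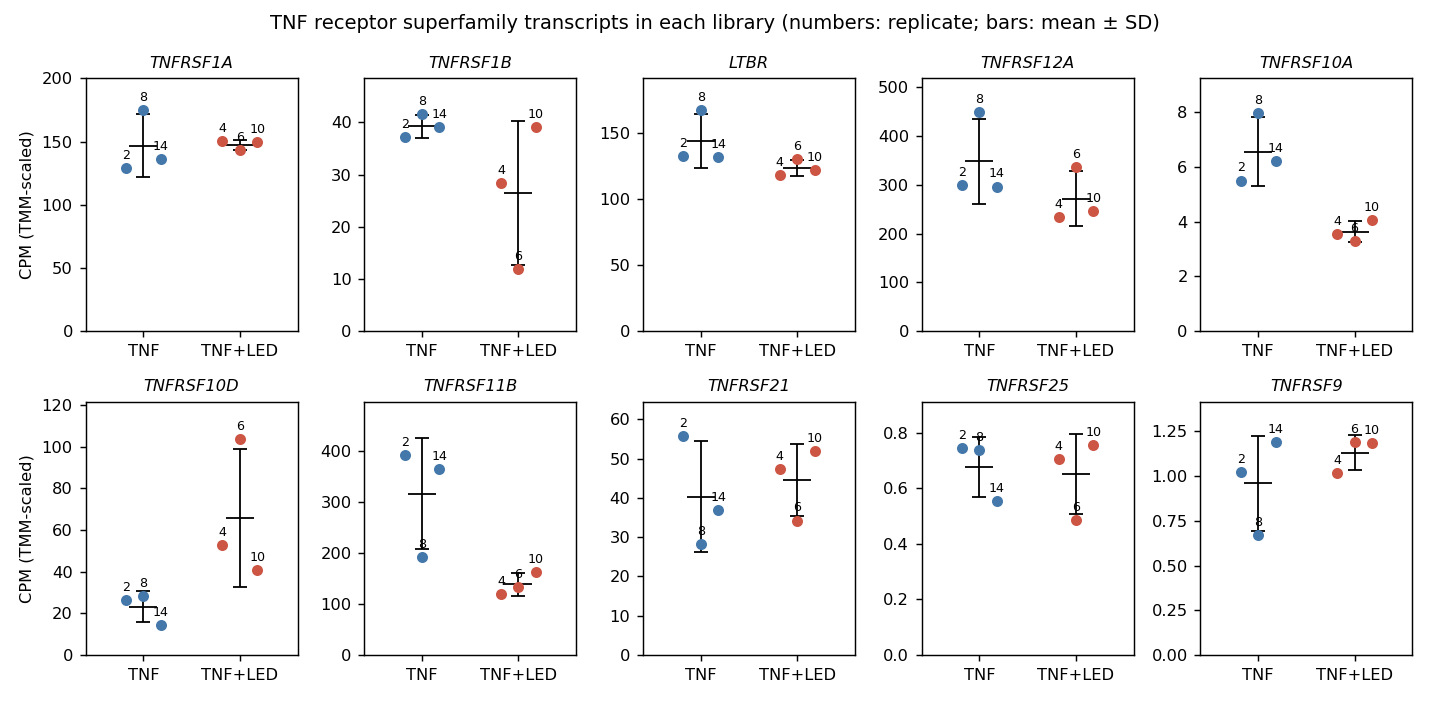
Transcript level of each of the 10 receptors (CPM, linear axis from 0) in the 3 TNF and 3 LED libraries, with replicate numbers beside the points and the mean and SD as bars. TNFRSF10D lies higher and TNFRSF11B, TNFRSF10A and LTBR lie lower in all LED libraries, and LED replicate 6 is the low point of TNFRSF1B and the high point of TNFRSF10D.

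RefSeq promoters (build GRCh38.p14) matched 6 of the 10 receptors, namely TNFRSF1A, TNFRSF1B, TNFRSF9, TNFRSF21, TNFRSF25 and LTBR. TNFRSF10A, TNFRSF10D, TNFRSF11B and TNFRSF12A had no entry. The 250 bases before each start were searched on both strands for 5 motifs: the NF-kB consensus (the kappaB site), AP-1 (TGANTCA), the core of the heat shock element (GAANNTTC), a longer heat shock element that contains this core and 1 further unit, and the p53 decamer. NF-kB and AP-1 are factors that TNFα activates. TNFRSF9, which encodes the costimulatory receptor 4-1BB, was the only one of the 6 with a match to the kappaB consensus and the only one with a match to AP-1. LTBR was the only one with a p53 decamer, from -93 to -84 relative to the start, and none of the 6 held either heat shock motif. Of 35116 promoter windows of this length, 9.96% held a kappaB match, 6.57% an AP-1 match, 5.78% a heat shock core, 0.441% the longer element and 5.57% a p53 decamer. The window of TNFRSF9 is shown with that of TNFSF14, a ligand of LTBR described further on whose transcript was near 0 without LED. Both windows were chosen for display after their matches were seen, and that of TNFSF14 is the farther upstream of 2 starts in the table. FAS, another receptor described further on, held a kappaB match and a p53 decamer before 1 of its starts and an AP-1 match before another. A gene with several starts has more windows in which a match can occur. RHBDF2, also described further on, was looked up as well and gave no match or had no entry. Capitals mark the matches, with the AP-1 match the one nearer the start, and each window is read on the minus strand, TNFRSF9 at chr1:7940840-7941089 and TNFSF14 at chr19:6670161-6670410.
TNFRSF9: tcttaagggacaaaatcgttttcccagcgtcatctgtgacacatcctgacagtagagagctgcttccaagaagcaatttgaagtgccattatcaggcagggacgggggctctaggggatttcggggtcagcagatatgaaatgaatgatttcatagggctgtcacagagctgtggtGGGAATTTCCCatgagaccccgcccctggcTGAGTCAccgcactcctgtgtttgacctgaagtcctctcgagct
TNFSF14: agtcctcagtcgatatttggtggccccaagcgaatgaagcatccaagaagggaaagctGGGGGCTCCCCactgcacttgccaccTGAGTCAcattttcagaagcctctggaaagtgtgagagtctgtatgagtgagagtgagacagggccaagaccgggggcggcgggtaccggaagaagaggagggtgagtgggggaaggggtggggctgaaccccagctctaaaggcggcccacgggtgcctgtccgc
In both windows 2 kappaB matches overlap, shifted by 1 base, from -74 to -64 of TNFRSF9 and from -192 to -182 of TNFSF14 relative to the start. A match in letters is not a measured binding site.

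The receptors for TNF itself come first. TNFRSF1A, which carries a death domain and is found on most cell types, was at 129, 175 and 136 CPM with TNF (replicates 2, 8 and 14, an order kept throughout) and at 150, 143 and 150 CPM with LED (replicates 4, 6 and 10). All LED values lay within the range of the TNF group. The log2 difference was 0.01 ± 0.17 (SE, edgeR quasi-likelihood test, adjusted p = 0.986), with a 95% interval from -0.38 to 0.40, so a change of up to about that size was not detectable with these samples.

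TNFRSF1B, the second TNF receptor, has no death domain and recruits TRAF2. It had 37.1, 41.6 and 39.2 CPM with TNF and 28.4, 11.8 and 39.1 CPM with LED. The TNF libraries were close to each other, whereas LED replicate 6 was far below the rest and LED replicate 10 lay inside the TNF range. The log2 difference of -0.57 ± 0.35 did not pass (adjusted p = 0.381, 95% interval -1.37 to 0.22). Within each library the log2 ratio of TNFRSF1A to TNFRSF1B, taken here and for the other pairs from CPM + 1, was 1.86 ± 0.16 (SD, n = 3) with TNF and 2.59 ± 0.81 with LED (exact two-sided permutation test p = 0.2, adjusted p = 0.3 over 3 pairs). With 3 against 3 this test cannot go below 0.1. The difference of 0.72 was 0.27 without LED replicate 6.

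LTBR, the lymphotoxin beta receptor, turns on the alternative NF-kB pathway. Its level was 132, 167 and 132 CPM with TNF and 118, 130 and 121 CPM with LED. Every LED library was below every TNF library, although TNF replicates 2 and 14 were only just above LED replicate 6. The log2 difference of -0.22 ± 0.17 did not pass (adjusted p = 0.478, 95% interval -0.60 to 0.15). Part of its exons, 6.72%, also lie on the opposite strand of SCNN1A, and no source used here says whether the counting took strand into account. Of the exons of TNFRSF12A 2.16% lie opposite CLDN6, and antisense genes lie opposite 7.59% and 9.01% of those of TNFRSF10A.

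TNFRSF12A, the receptor for TWEAK, is a small receptor that signals through TRAF adaptors. It had 299, 449 and 297 CPM with TNF and 233, 336 and 245 CPM with LED. Here TNF replicate 8 and LED replicate 6 were each the highest of their group, and LED replicate 6 lay inside the TNF range. The log2 difference was -0.36 ± 0.23 (adjusted p = 0.394, 95% interval -0.87 to 0.15). The log2 ratio of TNFRSF12A to LTBR was 1.25 ± 0.15 with TNF and 1.12 ± 0.22 with LED (exact two-sided permutation test p = 0.5, adjusted p = 0.5).

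The receptors for TRAIL, a ligand that can kill tumour cells and activated fibroblasts, differed among themselves. TNFRSF10A carries a death domain and passes on the TRAIL signal. It had 5.51, 7.97 and 6.21 CPM with TNF and 3.54, 3.30 and 4.05 CPM with LED, so the groups did not overlap. Its log2 difference of -0.85 ± 0.23 missed the threshold (adjusted p = 0.0633), with a 95% interval from -1.37 to -0.34. It passed in 2 of 17 alternative settings. These were DESeq2 (adjusted p = 0.0138), which called 12.7% of all genes, and removal of the GC trend of each library (adjusted p = 0.0406), chosen after seeing the data. It did not pass with limma-voom (adjusted p = 0.0746) or with any 1 library left out (edgeR, adjusted p 0.0601 to 0.209).

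TNFRSF10D binds TRAIL but has a truncated death domain and cannot start apoptosis. Its TNF libraries held 26.3, 28.2 and 14.5 CPM, in the order used above, and its LED libraries 53.0, 103 and 40.9 CPM. Every LED library was above every TNF library, and LED replicate 6 was far above the other LED libraries. The log2 difference was 1.51 ± 0.37 (SE, edgeR, adjusted p = 0.0482), with a 95% interval from 0.69 to 2.34. Leaving out 1 library ended the call for each of the 6 except LED replicate 10 (adjusted p = 0.0466). Without LED replicate 6 the log2 difference was 1.03 and the adjusted p 0.169, the highest of these. With all libraries kept it was lost under limma-voom (adjusted p = 0.0531) and under scaling by total count alone (adjusted p = 0.0539). It was also lost without both libraries that stood apart (log2 1.20, adjusted p = 0.129).

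The log2 ratio of TNFRSF10A to TNFRSF10D, again from CPM + 1, was -2.07, -1.70 and -1.10 with TNF and -3.57, -4.60 and -3.05 with LED. It was lower in each LED library than in any TNF library, a mean difference of -2.12 (exact two-sided permutation test p = 0.1, the smallest this design allows, adjusted p = 0.3 over 3 pairs). The added 1 CPM shrinks the ratio of such low levels, and with 0.1 CPM in its place the difference was -2.28. For comparison, TNFRSF10B, the other death receptor for TRAIL, had 155 to 176 CPM with TNF and 162 to 180 CPM with LED, a log2 difference of 0.04 ± 0.15. TNFRSF10C, a further decoy, was near the limit of detection at 0.269 to 0.446 CPM. These genes are close relatives, so reads shared between them could have been divided in ways the table does not show.

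**Figure D2:**
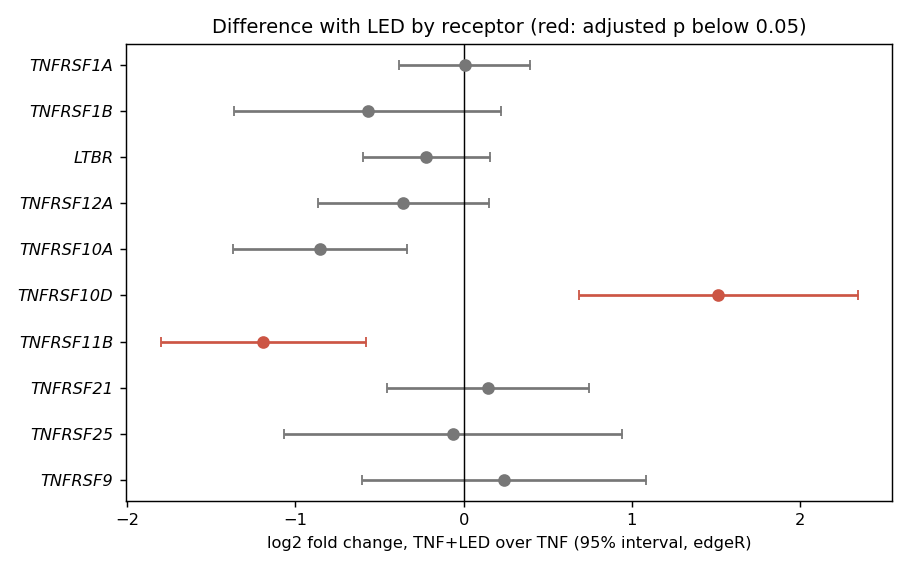
Log2 fold change with LED for each receptor, as the point estimate and 95% interval from the edgeR fit over all genes. Only the intervals of TNFRSF10A, TNFRSF10D and TNFRSF11B leave out 0, and of these TNFRSF10D and TNFRSF11B passed after adjustment.

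TNFRSF11B is the one secreted receptor among the 10. Its level was 392, 191 and 365 CPM with TNF, against 120, 132 and 163 CPM with LED. The LED libraries were close together and all below the TNF group, in which replicate 8 was near the LED level. The mean fell from 316 ± 109 to 139 ± 22.2 CPM (SD, n = 3), a log2 difference of -1.19 ± 0.27 (SE, edgeR, adjusted p = 0.0408, 95% interval -1.80 to -0.58). The call was kept without TNF replicate 8 (log2 -1.45, adjusted p = 0.0159) and without both libraries that stood apart (adjusted p = 0.00697), and it was lost without any 1 of the other 5 libraries (adjusted p up to 0.163, without LED replicate 6). RANKL, the ligand that osteoprotegerin binds on osteoblasts and fibroblasts, is encoded by TNFSF11, which was at 0 in 5 libraries and at 4 counts, about 1 fragment, in LED replicate 6.

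The remaining death domain receptors did not pass. TNFRSF21 (death receptor 6) had 55.8, 28.2 and 36.9 CPM with TNF and 47.3, 34.2 and 51.9 CPM with LED, and the LED values lay inside the TNF range (log2 0.14 ± 0.27, adjusted p = 0.796). TNFRSF25 (death receptor 3) was low, at 0.554 to 0.744 CPM with TNF and 0.487 to 0.757 CPM with LED (log2 -0.06 ± 0.45). It rests on only 48 to 83 counts per library, and its 95% interval reached from -1.07 to 0.94. Its exons also overlap those of ESPN (8.94% of their length, opposite strand) and PLEKHG5 (2.43%, same strand).

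TNFRSF9, the receptor shown with its promoter above, is known as an NF-kB target in activated lymphocytes. It was low in these TNFα-treated fibroblasts, at 1.02, 0.669 and 1.19 CPM with TNF and 1.02, 1.19 and 1.18 CPM with LED. The groups overlapped, with TNF replicate 8 the lowest library (log2 0.24 ± 0.38, adjusted p = 0.755, 95% interval -0.61 to 1.08).

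Levels of different receptors can be compared once the count is divided by the length of each gene's exons. On that scale (CPM per kb, exons from GENCODE 29) TNFRSF12A was the most abundant of the 10 in both groups, at 188 ± 47.2 with TNF and 147 ± 30.3 with LED. TNFRSF11B followed at 112 ± 38.5 and 49.0 ± 7.86, then TNFRSF1A at 36.7 ± 6.18 and 36.9 ± 0.982, and LTBR at 22.9 ± 3.24 and 19.6 ± 0.963. In the TNF group these 4 did not overlap with their neighbours in the order. TNFRSF21 (11.2 ± 3.92) and TNFRSF1B (10.4 ± 0.590) overlapped there, as did TNFRSF25 and TNFRSF9, both under 0.2 in every library. TNFRSF10D was the seventh in the TNF group at 6.50 ± 2.10 and the fifth with LED at 18.6 ± 9.37, where its range overlapped with LTBR and TNFRSF21. The order depends on the gene model. With the longest transcript in place of all exons, LTBR was at 61.8 with TNF, since that transcript has 2327 of the 6280 exonic bases, and TNFRSF1A (66.4) was ahead of TNFRSF11B (57.7) with LED.

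**Figure D3:**
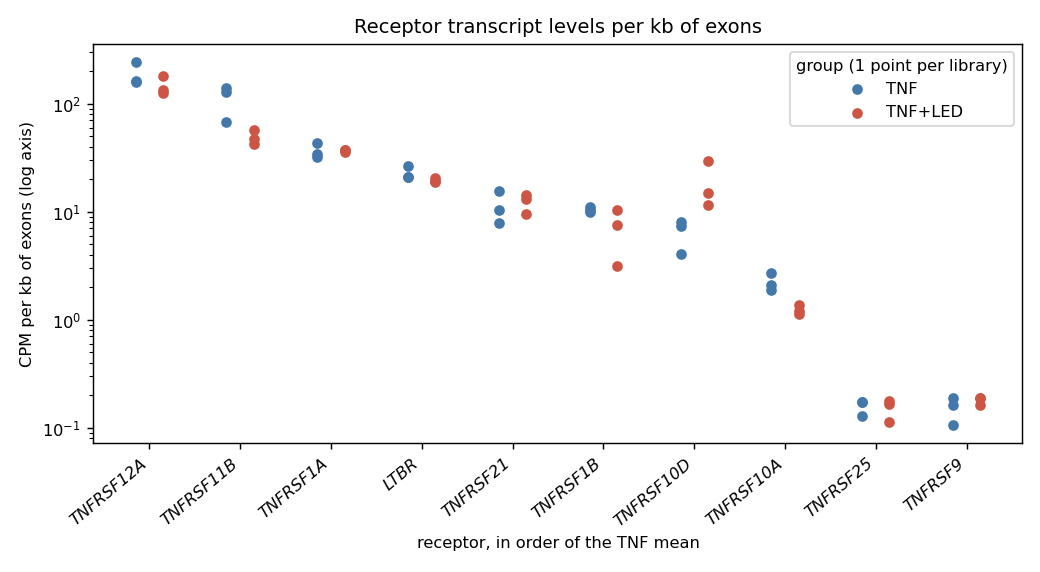
CPM per kb of exons for the 10 receptors on a log axis, 1 point per library, ordered by the TNF mean. TNFRSF12A and TNFRSF11B lead, TNFRSF25 and TNFRSF9 lie under 0.2, and with LED TNFRSF10D stands at position 5 in place of 7 and TNFRSF9 just above TNFRSF25.

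As a share of the summed per-kb level of the 10, TNFRSF11B made up 35.7%, 16.5% and 34.7% with TNF, against 16.2%, 14.3% and 20.2% with LED. TNF replicate 8 thus lay inside the LED range. TNFRSF10D made up 1.10% to 1.94% with TNF and 4.05% to 8.90% with LED. The sum itself was 389, 411 and 372 with TNF and 262, 328 and 285 with LED, and most of it was TNFRSF12A and TNFRSF11B.

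The genes with the most similar pattern were sought by the root mean square difference in centred log2(CPM + 1) over the 6 libraries, among 11897 other genes with a mean of at least 1 CPM. For TNFRSF10D they were OSGIN1 (0.16), NAT8L (0.23) and AMIGO3 (0.24). OSGIN1 had 12.3, 13.7 and 7.68 CPM with TNF and 29.4, 41.4 and 20.4 CPM with LED, with the highest value in LED replicate 6 as for TNFRSF10D. For TNFRSF11B they were RIMS2 (0.11), CORO7-PAM16 (0.11) and PRKG1 (0.12). PRKG1 had 72.5, 31.9 and 64.0 CPM with TNF and 21.4, 18.5 and 29.1 CPM with LED, with the lowest TNF value in replicate 8 as for TNFRSF11B. These genes were chosen for likeness over the same 6 libraries, so the shared high and low libraries follow from the search.

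Most other members of the receptor family did not pass the test or the filter on low counts. Of 19 further receptors 10 were tested, and 1 rose, none fell and 9 did not pass (median 0.03). Among all genes tested 2.44% were higher and 2.73% lower. The remaining 9 receptors did not pass the filter, among them TNFRSF11A, the receptor for RANKL. FAS, the receptor for FAS ligand, rose from 40.4, 28.9 and 38.9 CPM to 65.4, 75.0 and 62.3 CPM, with no overlap (log2 0.91 ± 0.19, adjusted p = 0.0324). Leaving out TNF replicate 14 or any 1 LED library ended the call (adjusted p up to 0.118). Of its exons 8.93% lie opposite ACTA2. From here on, genes other than FAS, TNFSF14, TRAF1, TRAF6, CASP8, MLKL and RHBDF2 were chosen after their values were seen, as was TNFRSF10B above.

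Of 18 ligand genes 9 passed the filter and were tested, and 1 rose, none fell and 8 did not pass (median -0.36). The shares among all genes tested were 2.44% higher and 2.73% lower. TNF itself was at 0 in all 6 libraries, which allows up to 0.108 to 0.138 CPM per library at a limit of 3 fragments. TNFSF14, which encodes the LTBR ligand LIGHT, had 10, 0 and 0 counts with TNF and 136, 133 and 145 counts with LED. TNFSF14 passed the filter on low counts only through its LED libraries, so its place among the genes tested already depended on their counts. The LED libraries were alike and the TNF libraries at or under the limit of 12 counts. In fragments, pooled over the 3 libraries of each group and rounded, this was about 2 against 104. That is a ratio of 51.5, with an exact 95% interval of 13.9 to 430 for counting error alone, and the ratio of mean CPM was 45.8. The interval leaves out the spread between libraries and the dependence on the filter, so it is not a test of the difference with LED. The fitted log2 difference of 5.37 ± 1.02 (edgeR, adjusted p = 0.0264) depends on how counts near 0 are treated and was 10.07 without TNF replicate 2, where both TNF libraries are at 0, and the call was lost without TNF replicate 14 or any 1 LED library (adjusted p up to 0.110).

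The other ligands tested did not pass. The lowest p among them belonged to TNFSF4, which encodes OX40 ligand. It had 31.5, 28.5 and 43.5 CPM with TNF and 18.9, 15.3 and 22.9 CPM with LED, with no overlap (log2 -0.86 ± 0.22, adjusted p = 0.0599). TNFSF18, which encodes GITR ligand, had 1.98 to 8.34 CPM with TNF and 1.30 to 2.96 CPM with LED (log2 -1.32 ± 0.50, adjusted p = 0.158). TNFSF10, which encodes TRAIL, had 1.15, 2.41 and 5.31 CPM with TNF and 2.14, 1.48 and 1.61 CPM with LED. TNFSF12, which encodes TWEAK, had 12.1 to 19.5 CPM with TNF and 10.6 to 13.0 CPM with LED, though 29.4% of its exons are shared with the read-through gene TNFSF12-TNFSF13. TNFSF15, the ligand of TNFRSF25, had 14.3 to 29.1 CPM with TNF and 29.1 to 46.2 CPM with LED (log2 0.66 ± 0.29, adjusted p = 0.211). TNFSF9, the ligand of TNFRSF9, was between 1.10 and 2.01 CPM in all libraries.

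Downstream of the receptors none of the genes listed passed with edgeR. Of 22 adaptors, ubiquitin ligases and kinases that act next to the receptors, edgeR called 0, against 3 with DESeq2 and 0 with limma-voom, and their median was -0.15. Over all genes DESeq2 called 12.7% and limma-voom 4.78%. With edgeR 6 of the 22 had an unadjusted p below 0.05, beside 22.7% of all genes tested. The lowest p belonged to TRAF1, an NF-kB-induced adaptor that binds TNFRSF1B and TNFRSF9. It had 14.6, 32.1 and 22.3 CPM with TNF and 10.2, 12.3 and 13.7 CPM with LED (log2 -0.93 ± 0.28, adjusted p = 0.0857). TRAF6, a ubiquitin ligase, had 16.4 to 21.2 CPM with TNF and 25.2 to 31.4 CPM with LED (log2 0.56 ± 0.18, adjusted p = 0.105). Of 10 genes of the caspase and necroptosis arm, edgeR, DESeq2 and limma-voom called 0 and none had an unadjusted p below 0.05 with edgeR. CASP8, the caspase that death receptors activate, had a log2 difference of -0.34 ± 0.17, and MLKL, the effector of necroptosis, one of 0.33 ± 0.18.

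Receptors of this family can also be cut from the cell surface, chiefly by the protease ADAM17. In this list of 7 genes there was 1 that fell and 0 that rose (median 0.05), beside 2.73% lower and 2.44% higher among all genes tested. RHBDF2, which encodes iRhom2, a partner that brings ADAM17 to the surface, fell from 14.3, 17.8 and 19.2 CPM to 6.48, 6.81 and 8.40 CPM. Every LED library was below every TNF library (log2 -1.24 ± 0.20, adjusted p = 0.0153). It was no longer called when TNF replicate 14 or either of LED replicates 4 and 6 was left out (adjusted p up to 0.0810). ADAM17 had 26.7 to 41.9 CPM with TNF and 38.3 to 46.4 CPM with LED (log2 0.28 ± 0.20, adjusted p = 0.458), and its inhibitor TIMP3 had 161 to 254 and 202 to 370 CPM (log2 0.42 ± 0.26, adjusted p = 0.38).

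**Figure D4:**
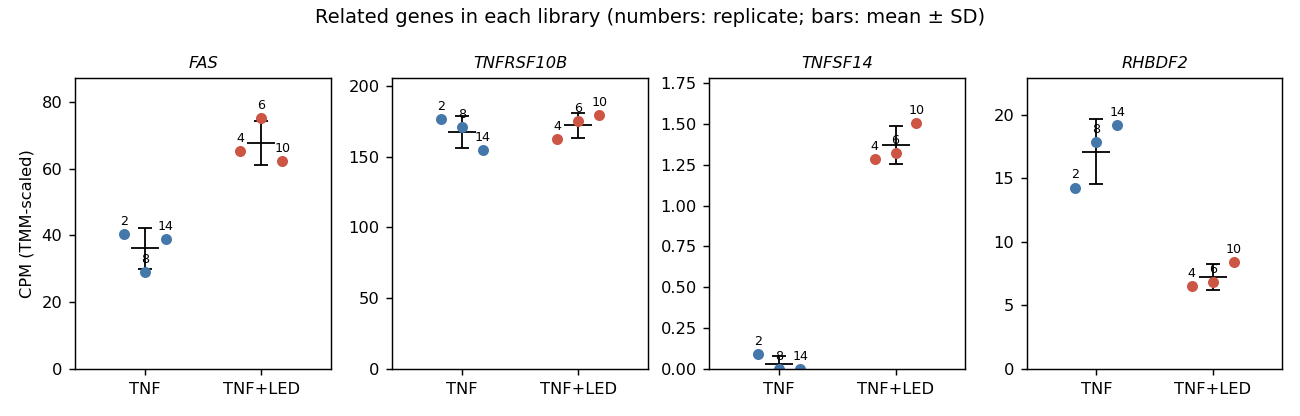
CPM in each library (linear axis from 0) of the receptors FAS and TNFRSF10B, the ligand TNFSF14 and the ADAM17 partner RHBDF2, with the mean and SD as bars. FAS and TNFSF14 lie higher and RHBDF2 lower in all 3 LED libraries, while TNFRSF10B overlaps between the groups.

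Across the 17 alternative settings (16 for TNFRSF25, which one filter removed) the direction of TNFRSF10A, TNFRSF10D, TNFRSF11B, TNFRSF1B, TNFRSF12A and LTBR was the same in each, while TNFRSF1A, TNFRSF9, TNFRSF21 and TNFRSF25 changed sign in at least 1. TNFRSF11B was called in 12 of 17, TNFRSF10D in 9 and TNFRSF10A in 2. The log2 difference of TNFRSF11B lay between -1.45 and -1.02 and that of TNFRSF10D between 1.03 and 1.76.

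**Figure D5:**
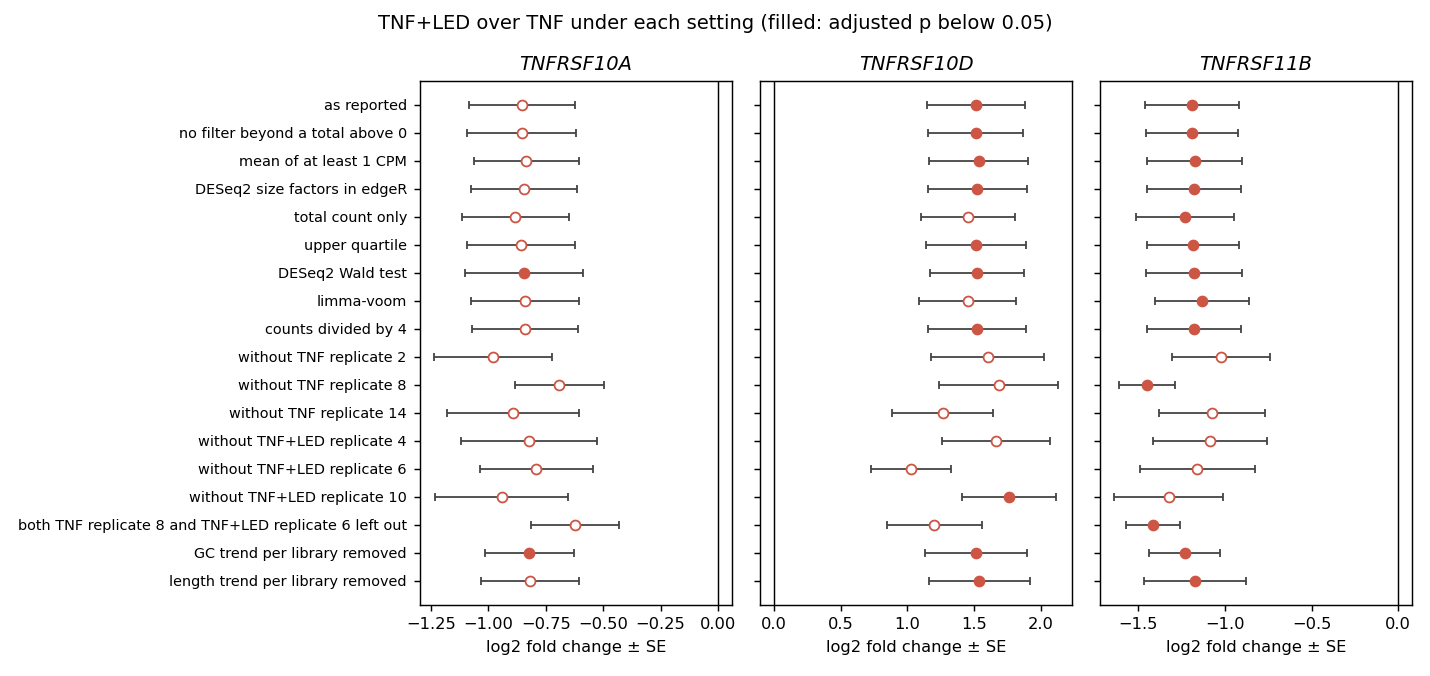
Log2 fold change with LED and its SE for TNFRSF10A, TNFRSF10D and TNFRSF11B under the setting reported and 17 others, with filled points where the adjusted p was below 0.05. All points stay on 1 side of 0, and most open points of TNFRSF10D and TNFRSF11B are settings with 1 library left out.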

How the data were processed

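Estimated counts were deposited by gene for 6 libraries, all of them whole numbers. Per the submitters' processing notes bcl2fastq 2.0, HISAT2, StringTie, DESeq2 and limma were used, with no role given. The notes name a mouse build although samples and symbols are human, so which build was used is not known from them. Of the values from 1 to 7, 41.8% equalled 4, so a fragment appeared to be worth about 4 counts, and the totals to correspond to 21500063 to 27018572 fragments.

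LED (n = 3) was compared with TNF (n = 3) by edgeR 4.0.16 in R 4.3.3 (filterByExpr, TMM, robust quasi-likelihood test over all genes, two-sided, Benjamini-Hochberg adjustment, threshold 0.05). The procedure was tested on simulated counts. It called 35 of 97 genes with a true log2 difference of 1 in size and 87 of 97 with one of 2. Of 13400 unchanged genes it called 6. Many differences of log2 1 were thus missed. Alternatives were other filters and scalings, DESeq2 1.42.0, limma-voom (limma 3.58.1), counts divided by 4 and libraries left out. Removal of GC or length trends was chosen after seeing the data. Promoter windows were searched for 5 motifs, and all 5 are reported. GENCODE 29 matched 19208 of the 19475 symbols. Libraries of a group differed by far more than counting noise (chi-square per degree of freedom at least 26.8), so none was a copy. The members and gene lists were chosen with earlier results of these data known. All members were named, and from each list up to 4 called genes with the lowest p, or 2 where none was called. Limits and intervals from counts cover counting error only.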

Additional observations from a re-analysis of the deposited data

How the results depend on the processing

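Of the 10 receptors 2 were called as reported, and the count was 3 with DESeq2, 1 with total-count scaling, with limma-voom and without both TNF replicate 8 and LED replicate 6, and 0 to 1 with any single library left out. Over all genes 713 were called, against 1753 with DESeq2, 1669 without both of those libraries, 1199 with the GC trend removed and 80 to 737 with single libraries left out, the lowest without LED replicate 6. In the lists, calls among other receptors, ligands, adaptors and shedding genes numbered 0 to 1 each with single libraries left out. Ligands called were 2 with DESeq2, without both libraries and with the GC trend removed, and 0 at a mean of at least 1 CPM, where TNFSF14 was not tested. Adaptors called were 3 with DESeq2 and 4 without both libraries, and shedding genes 2 without both. Sign changes occurred only in receptors whose reported log2 difference was smaller in size than its SE. TNFRSF1A was at -0.023 with total-count scaling and -0.090 to 0.15 with single libraries left out, TNFRSF21 at -0.060 to 0.44 and TNFRSF25 at -0.19 to 0.11 in the same way. Without both libraries TNFRSF9 was at -0.0023 and TNFRSF25 at 0.17, and TNFRSF25 was at 0.040 with the GC trend removed. The cause of these changes was not tested. Fits that leave libraries out also have fewer samples. No paired analysis was made, because the labels do not say whether any TNF and LED samples were paired. Depth limits TNFRSF25, TNFRSF9 and TNFSF14, which rest on few fragments.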
